A study of Mus musculus with 3 samples.

Results

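The S100 genes encode small EF-hand proteins that bind calcium and, when loaded, expose a surface that docks on target proteins. Some members act inside the cell on annexins, myosin and other cytoskeletal partners. Others are released and act on receptors of innate immunity, and several have been studied in mammary cancer and its spread. The 10 genes described here (S100a1, S100a4, S100a6, S100a8, S100a9, S100a10, S100a11, S100a13, S100a14 and S100a16) were chosen by symbol, with values of these arrays already known, and S100a4 was chosen in part because it went in opposite directions on the circulating and metastatic arrays. Each has 1 probe, so they are 10 of 25697 probes and 10 of 16593 named genes. Their values are therefore a description, with no test.

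The cells were GFP-labelled 4T1 cells, a line derived from a mouse mammary carcinoma, grown in the mammary pad of female Balb/C mice aged 10 to 12 weeks. Flow cytometry sorted them out of the breast tumour (PCC), the systemic circulation (CCC) and metastatic sites in the lung (MCC), and each group has 1 Illumina BeadChip array. All groups share the line, the label and the host strain. The sorting gate and the number of mice behind an array are not given in the sources used here.

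With 1 array a group there is no spread between replicates, so no difference between arrays has a replicate check, neighbours in an order of levels cannot be set against a replicate spread, and no p-value between groups is given. The arrays differed in brightness, with a mean deposited intensity of 410 (PCC), 462 (CCC) and 232 (MCC). Values called normalized are log2 intensities after background correction and quantile normalization of the 3 arrays, and a probe is called detected at a deposited detection p under 0.01. A pair of arrays was compared over the genes detected on each of them, and a gene was counted at a size of at least 2-fold (1 on the log2 scale). Of 12 epithelial genes, 4 were detected on PCC, 4 on CCC and 11 on MCC, with summed normalized intensities of 6453, 6703 and 11440. The keratins Krt8 and Krt18 were detected on all 3 arrays, and Krt19, Krt14, Krt5, Cldn3 and Esrp1 on MCC alone. Marker lists of other cell types differed widely too. The summed normalized intensity of 11 macrophage genes was 4252 (PCC), 25237 (CCC) and 10536 (MCC). That of 11 lymphocyte genes was 809, 3333 and 20829, and that of 9 adipocyte genes 226, 361 and 30785. Directions below are therefore those of the array that carries a label.

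All 10 genes lie on mouse chromosome 3, in the S100 cluster, and RefSeq start windows (build GRCm38.p6) matched 8 of them, with S100a10 and S100a14 not matched. The 250 bases upstream of the annotated start are printed for S100a8 and S100a9, which had nearly the same profile over the arrays, and for S100a4, which went in opposite directions. Sequences run 5′ to 3′ on the gene's strand, and capitals mark TATAAA, the letters of a TATA box. The windows are chr3:90668821-90669070 (plus strand) for S100a8, chr3:90695722-90695971 (minus strand) for S100a9 and chr3:90603520-90603769 (plus strand) for S100a4.
S100a8: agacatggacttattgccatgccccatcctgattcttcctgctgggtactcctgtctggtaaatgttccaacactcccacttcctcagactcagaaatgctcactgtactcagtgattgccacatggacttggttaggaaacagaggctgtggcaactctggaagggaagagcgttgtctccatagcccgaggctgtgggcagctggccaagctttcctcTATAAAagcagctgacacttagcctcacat
S100a9: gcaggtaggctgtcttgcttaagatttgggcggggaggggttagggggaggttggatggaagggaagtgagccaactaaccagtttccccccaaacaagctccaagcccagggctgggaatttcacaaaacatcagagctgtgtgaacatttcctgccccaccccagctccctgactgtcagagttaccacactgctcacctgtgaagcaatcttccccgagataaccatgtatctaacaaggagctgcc
S100a4: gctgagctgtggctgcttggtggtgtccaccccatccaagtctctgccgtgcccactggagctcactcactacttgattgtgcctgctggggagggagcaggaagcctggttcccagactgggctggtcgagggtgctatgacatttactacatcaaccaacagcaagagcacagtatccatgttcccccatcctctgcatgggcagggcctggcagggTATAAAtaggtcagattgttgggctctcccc

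The letters TATAAA were at bases 30 to 25 before the start of S100a8 and at bases 31 to 26 before that of S100a4, and were not found in the S100a9 window. They occur on either strand in 12.4% of 32851 upstream windows of the same length. The letters TGANTCA, bound by AP-1, were found in S100a11, at bases 136 to 130 and 38 to 32, and in S100a16, at bases 192 to 186 of 1 of its windows, against 6.75% of all windows. ACGTG, read in hypoxia response elements, was found in S100a11 alone among the members, where a match on either strand overlaps the other, and in 16.6% of all windows. TTNCGNAA, a C/EBP pattern, was in no member's window and in 2.04% of all. A match describes these letters only. S100a1 and S100a13 lie head to head: their annotated start windows of 300 bases share 204 bases.

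**Figure D1:**
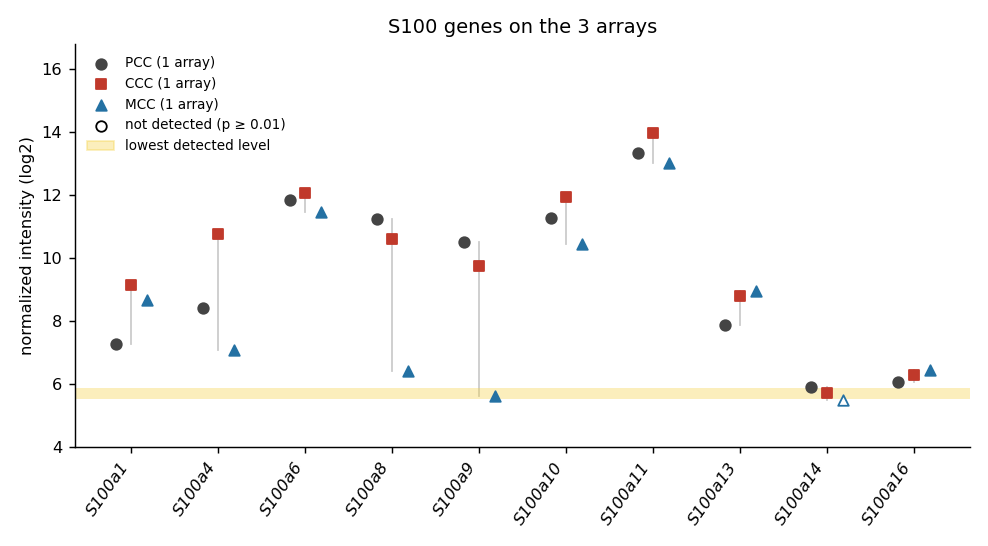
Normalized log2 intensity (vertical axis) of the 10 S100 genes (horizontal axis) on the PCC (circle), CCC (square) and MCC (triangle) arrays, 1 array each. An open marker was not detected, and the band spans the lowest detected level of the 3 arrays, from 5.54 to 5.88. S100a8 and S100a9 were at 9.76 or above on PCC and CCC and at 6.42 and 5.62 on MCC, and S100a4 was highest on CCC at 10.75.

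Set against the primary tumour array, the circulating array had more S100 transcript for most members. Among the 10 members detected on both arrays, CCC stood above PCC in 7 and below it in 3, and the median log2 difference was 0.43, against -0.10 over all 7286 genes. Of all these genes, 40.5% were higher on CCC. S100a4 and S100a1 were at least 2-fold higher and 0 members were 2-fold lower. That is 2 of 10 members, where 8.63% of all genes reached 2-fold in either direction, 4.95% higher and 3.68% lower. Since the members were chosen with these values known, nothing is read from these shares.

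The metastatic array parted from the primary tumour array in both directions. Of 9 members detected on both, MCC stood above PCC in 3 and below it in 6, and the median log2 difference was -0.40, against -0.16 over all 6829 genes. Of all these genes, 43.4% were higher on MCC. S100a8, S100a9 and S100a4 were at least 2-fold lower, while S100a1 and S100a13 were at least 2-fold higher. These 5 members stand beside 35.2% of all genes past 2-fold in either direction, made up of 14.2% of all genes higher and 21.1% lower. The split depended on scaling: under 75th percentile scaling 1 member was 2-fold higher and 4 lower, and without between-array normalization 0 were higher and 6 lower. Without normalization the median of all genes was itself -0.75.

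**Figure D2:**
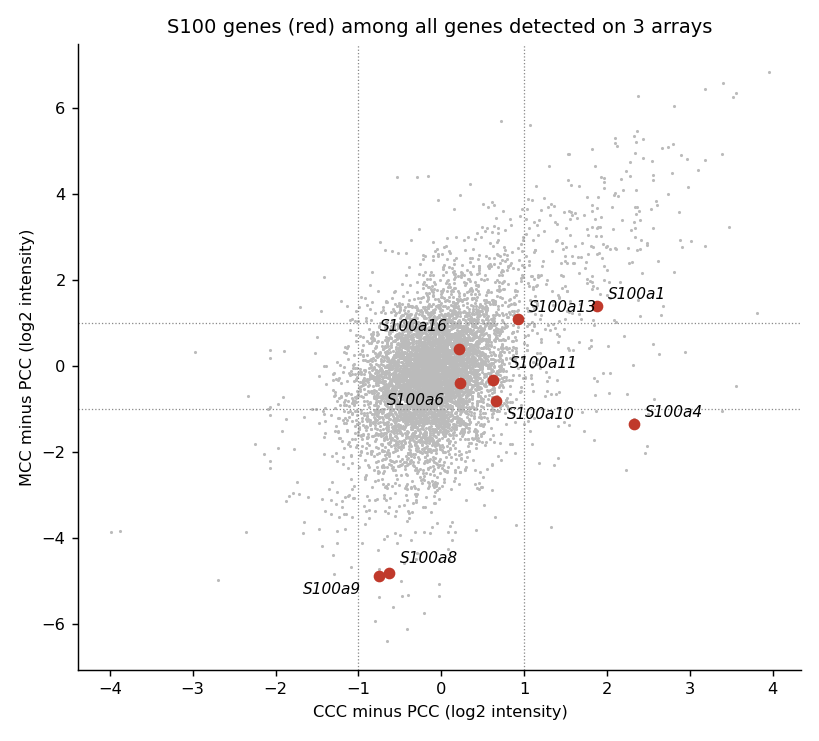
Difference from the primary tumour array on CCC (horizontal axis) and on MCC (vertical axis), in log2 intensity, for the 6753 genes detected on all 3 arrays (grey) and the 9 S100 genes among them (red). Dotted lines mark 2-fold. Both axes share the PCC array. S100a8 and S100a9 sit together at -4.83 and -4.89 on the vertical axis, and S100a4 lies at 2.33 and -1.35.

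S100a8 and S100a9 form the heterodimer calprotectin, an alarmin of neutrophils and monocytes that also sequesters metal ions. For S100a8 the deposited intensity was 2762 (PCC), 1994 (CCC) and 55.5 (MCC). For S100a9 it was 1607, 1068 and 27.6. Both genes were bright on the tumour and blood arrays and close to background on the metastatic array, where the detection p of S100a9 was 0.00877, just under the threshold. The normalized log2 intensity of S100a8 was 11.25, 10.62 and 6.42 on PCC, CCC and MCC, and that of S100a9 was 10.51, 9.76 and 5.62.

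The order of the arrays was the same for the pair, PCC above CCC above MCC. S100a8 was 1.55-fold and S100a9 1.69-fold lower on CCC than on PCC. On MCC they were 28.4-fold and 29.6-fold lower than on PCC, and stood 15th and 13th from the lowest of the 6829 genes. Across the 3 pairs of arrays, the log2 differences of S100a8 and S100a9 lay between 0.061 and 0.12 apart. The lowest detected level on MCC was 5.60, so the S100a9 value lies at the edge of what the array measured and the size of its fold is uncertain. The ratio of deposited intensities, with no further correction, was 49.8 for S100a8 and 58.2 for S100a9.

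Neutrophil markers are the natural companions of this pair, and their list went several ways. Of 16 genes, 15 had a probe, with 8 detected on PCC, 8 on CCC and 5 on MCC, and their summed normalized intensity was 3401, 1691 and 5838. Lactoferrin (Ltf) made 4054 of the sum on MCC. Without it the sums were 3322, 1562 and 1784, so that MCC went from the highest array to below PCC. Of the genes left, Lcn2 was the brightest on PCC and on MCC, at normalized log2 intensities of 10.91 and 10.21. The sums also hold the values of undetected probes. The granule genes Ngp, Camp, Mmp8, Elane and Mpo were detected on no array (detection p 0.0213 to 0.951). Ifitm6, Retnlg, Chil3 and Stfa1 were detected on PCC and not on MCC. Chil3, a chitinase-like protein of myeloid cells, had deposited intensities of 569 on PCC, 293 on CCC and 1.16 on MCC, at least 11.2-fold lower on MCC than on PCC.

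The neutrophil genes detected on MCC went both ways against PCC. Mmp9 and Lcn2 were 1.58-fold and 1.62-fold lower on MCC, with log2 differences of -1.02 and -1.52 without between-array normalization. Ltf, which mammary epithelium also makes, had deposited intensities of 59.2, 147 and 2356 on PCC, CCC and MCC and was 51.5-fold higher on MCC than on PCC. The chemokine receptor Cxcr2 was detected on MCC alone, at least 2.42-fold higher than on PCC. Csf3r, the G-CSF receptor, was dim throughout, at normalized log2 intensities of 6.35, 6.22 and 6.22. The part of neutrophil RNA in the S100a8 and S100a9 values was not tested. In bulk RNA, fewer cells of a type and less RNA per cell cannot be told apart.

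By the distance between profiles over the 3 arrays, among 6744 other genes detected on all 3, the 5 genes closest to the mean of S100a8 and S100a9 were Eps8 (distance 0.147 on the log2 scale), Apol9b (0.216), Pbk (0.247), Aurka (0.308) and Itga3 (0.375). Pbk and Aurka are mitotic kinases, Eps8 is an actin regulator and Itga3 an integrin subunit. None is on the neutrophil list, but only genes detected on all 3 arrays were searched. Ifitm6, Retnlg, Chil3 and Stfa1, undetected on MCC, could not be among them, so nothing is read from that absence. Aurka, for example, had normalized log2 intensities of 10.26, 9.96 and 5.77 on PCC, CCC and MCC. On MCC Eps8 (5.67), Apol9b (5.60), Aurka and S100a9 itself (5.62) lie near the lowest detected level, 5.60. The distances of these genes are therefore uncertain.

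**Figure D3:**
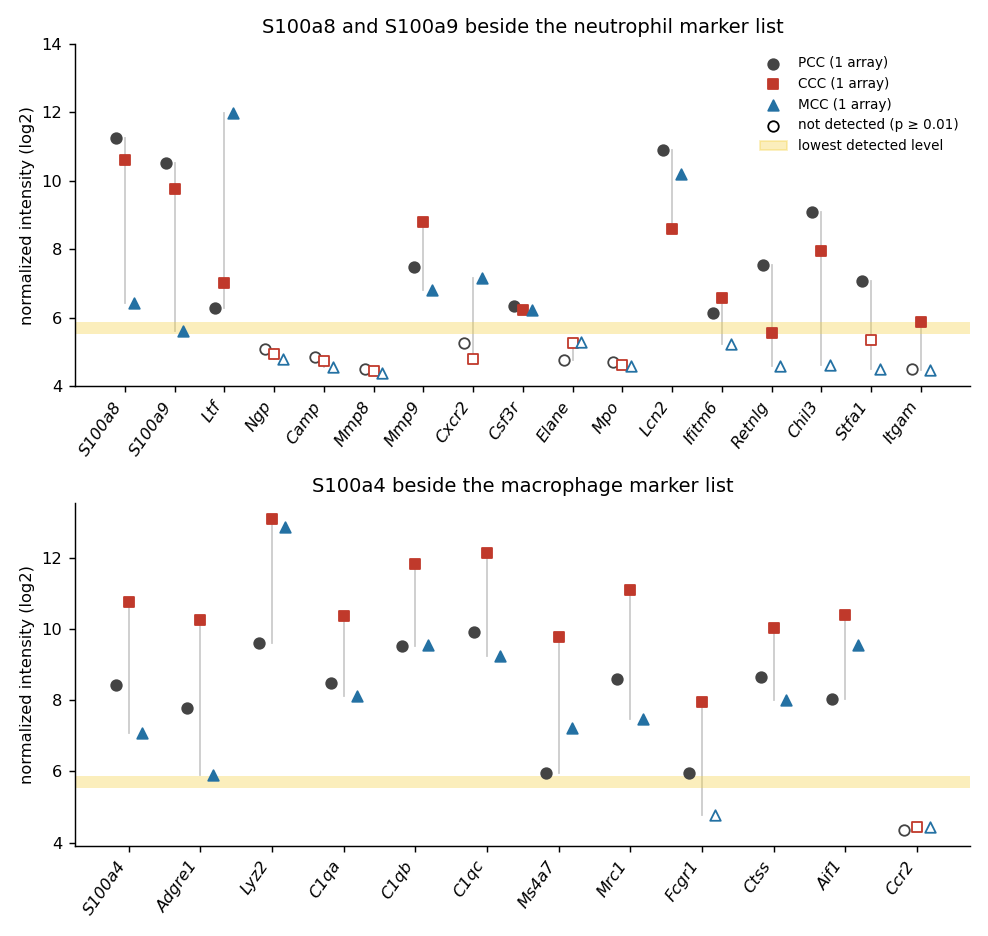
Normalized log2 intensity (vertical axis) on the 3 arrays of S100a8 and S100a9 beside the neutrophil list (top) and of S100a4 beside the macrophage list (bottom), with genes along the horizontal axis, open markers for probes not detected and the band of lowest detected levels. Chil3, Retnlg and Stfa1 were high on PCC and undetected on MCC while Ltf was highest on MCC at 11.99, and S100a4, Adgre1 and Mrc1 were each highest on CCC and lowest on MCC.

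Calprotectin released from cells binds Toll-like receptor 4 (Tlr4) with its cofactors, and the receptor RAGE (Ager). Of 8 receptor genes, 5 were detected on PCC and CCC, and 0 of these 5 reached 2-fold between those arrays, beside 8.63% of all genes. On MCC against PCC the median log2 difference of these 5 was -1.18. Of the 5, 1 was at least 2-fold higher and 3 were lower, beside 14.2% and 21.1% of all genes. Tlr4 had deposited intensities of 140, 172 and 29.5 on PCC, CCC and MCC and was 2.99-fold lower on MCC than on PCC. Its MCC value lies near the lowest detected level (detection p 0.00752), so the size of that fold is uncertain. The co-receptor Cd14 was 2.27-fold lower on MCC than on PCC, and Nptn 2.80-fold lower. The adhesion molecule Mcam was 2.45-fold higher on MCC, with a log2 difference of 0.74 without between-array normalization. Ager was detected on MCC alone, at a deposited intensity of 98.0, at least 2.60-fold higher than on PCC. Lung alveolar cells express Ager strongly. Of 8 lung epithelium genes, Ager among them, 2 were detected on PCC, 2 on CCC and 4 on MCC, with summed normalized intensities of 872, 1350 and 2626. The surfactant genes Sftpc and Sftpb were detected on no array, and Cyp2f2 was detected on MCC alone (at least 2.88-fold higher than on PCC). Abca3 and Aqp5 were 3.40-fold and 2.77-fold higher on MCC than on PCC. Without between-array normalization the log2 differences of Abca3 and Aqp5 were 0.93 and 0.79. The part of lung RNA in the Ager value was not tested.

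Transcription factors and inflammatory genes linked to S100a8 and S100a9 were mostly lower on MCC where both arrays detected them, while several were detected on MCC and not on PCC. Of 10 such factors with a probe, 6 were detected on both PCC and MCC. Of these 6, 3 were at least 2-fold lower and 0 higher on MCC (median -1.32), beside 21.1% and 14.2% of all genes. Hif1a, 1 of the 3, lies near the lowest detected level on MCC (detection p 0.00752). Stat3 had a log2 difference of 0.76, which turned to -0.19 without between-array normalization. Spi1, a factor of myeloid cells, went undetected on PCC alone and was at least 1.89-fold higher on MCC than there. Cebpa, a C/EBP factor of myeloid cells and fat, was detected on MCC alone, and Fosl1, an AP-1 subunit, was detected on PCC and CCC and not on MCC (at least 3.89-fold lower there than on PCC). Cebpb, a C/EBP factor of the acute phase, had deposited intensities of 12245.3, 5608 and 828 on PCC, CCC and MCC. It was 2.39-fold lower on CCC and 7.61-fold lower on MCC than on PCC, so its arrays stood in the same order as those of S100a8. Saa3, a serum amyloid that S100 proteins induce in mouse lung, had deposited intensities of 322, 185 and 8.01, and was detected on PCC and CCC and not on MCC, at least 6.59-fold lower there than on PCC. Of 12 inflammatory genes, 2 were detected on both PCC and MCC, Cxcl1 and Il1b. Both were at least 2-fold lower on MCC, beside 21.1% of all genes. The neutrophil chemokine Cxcl1 was 5.14-fold lower on CCC and 14.5-fold lower on MCC than on PCC. Tnf, a cytokine that induces S100a8 and S100a9, was detected on MCC alone, at least 2.58-fold higher than on PCC. In contrast Il1b, which encodes interleukin-1β, followed the order of S100a4, 2.80-fold higher on CCC and 2.46-fold lower on MCC than on PCC.

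S100a4, also called metastasin or fibroblast-specific protein, binds the heavy chain of non-muscle myosin and is made by motile tumour cells, fibroblasts and macrophages. Its deposited intensity was 350 (PCC), 2201 (CCC) and 87.1 (MCC), and its normalized log2 intensity 8.43, 10.75 and 7.08. It was the only member at least 2-fold apart in every pair of arrays. The gene was 5.01-fold higher on CCC and 2.55-fold lower on MCC than on PCC, and 12.8-fold higher on CCC than on MCC. Of the 6753 genes detected on all arrays, 24 (0.355%) were 2-fold higher on CCC and 2-fold lower on MCC than on PCC, a count that became 60 without between-array normalization and 39 without the filter on dim probes. S100a4 was picked in part for this pattern, and the comparisons share the PCC array.

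The 5 genes closest to the S100a4 profile over the 3 arrays were Trem2 (distance 0.0247), Ccl9 (0.0928), Mrc1 (0.176), Ch25h (0.360) and Ccl8 (0.409). Trem2 is a lipid-sensing receptor of macrophages, Mrc1 the macrophage mannose receptor, Ccl9 and Ccl8 are chemokines made by myeloid cells, and Ch25h hydroxylates cholesterol. On MCC Trem2 was at a normalized log2 intensity of 5.90, near the lowest detected level of 5.60, so its distance is uncertain. Of these 5, Mrc1 alone is on the macrophage list. From that list, 10 genes could be compared between CCC and PCC. All 10 were 2-fold higher or more on CCC (median log2 difference 2.35), beside 4.95% of all genes. Of 9 macrophage genes detected on both MCC and PCC, 3 were 2-fold higher and 2 lower on MCC, with a median of -0.35. The shares of all genes there were 14.2% higher and 21.1% lower.

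Single macrophage genes parted on MCC. Adgre1 had deposited intensities of 207, 1506 and 36.2 on PCC, CCC and MCC, in the order of S100a4, whereas lysozyme Lyz2 had 857, 11059 and 4129 and was 9.45-fold higher on MCC than on PCC. Fibroblast genes, the other known source of S100a4, had a median log2 difference of 2.11 on CCC and 1.03 on MCC against PCC, over 7 genes each. On CCC 4 of the 7 were higher, each by at least 2-fold, beside 4.95% of all genes, and 3 were lower by less. On MCC 6 were higher and 1 lower. At least 2-fold apart there were 4 higher and 1 lower, beside 14.2% and 21.1% of all genes. Col1a2, Lum, Fbln1 and Fap were detected on CCC and MCC and not on PCC. Col1a2, Lum and Fbln1 were at least 5.20-fold, 3.81-fold and 5.54-fold higher on CCC than on PCC. Lum, Fbln1 and Fap were at least 1.85-fold, 4.06-fold and 2.83-fold higher on MCC. Fap on CCC and Col1a2 on MCC had no such bound. The collagen gene Col1a1 had deposited intensities of 110, 673 and 172. Thy1 and Acta2, neither confined to fibroblasts, were highest on MCC, 27.0-fold and 30.4-fold above PCC. Pdgfra was instead 1.57-fold lower on CCC and 6.68-fold lower on MCC than on PCC. The part of macrophage and fibroblast RNA in the S100a4 values was not tested. Of the non-muscle myosin heavy chains, Myh9, which S100a4 binds, was 1.03-fold higher on CCC and 1.83-fold higher on MCC than on PCC, directions that turned under 75th percentile scaling (-0.077 on the log2 scale, CCC) and without normalization (-0.16, MCC). Myh10 went the other way, 1.37-fold lower on CCC and 4.71-fold lower on MCC.

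S100a10, S100a11 and S100a6 dock on annexins at membranes, and all 3 stood in the order CCC, PCC, MCC. S100a10, which pairs with annexin A2 at the cell surface and binds plasminogen, had deposited intensities of 2794 on PCC, 4904 on CCC and 851 on MCC. S100a11, a partner of annexin A1, had 12245.5, 18950.5 and 4697. S100a6, or calcyclin, had 4236, 5590 and 1600. On the normalized scale, which takes out the lower brightness of the whole MCC array, the spread was smaller. S100a10 was 1.58-fold higher on CCC and 1.76-fold lower on MCC than on PCC, S100a11 was 1.55-fold higher and 1.26-fold lower, and S100a6 was 1.17-fold higher and 1.32-fold lower.

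None of these differences from PCC reached 2-fold, and S100a10 was 2.78-fold higher on CCC than on MCC. The lower values on MCC depended on scaling for their size and not for their direction. Against PCC without between-array normalization, the log2 differences were -1.70 for S100a10, -1.38 for S100a11 and -1.40 for S100a6. Measured from the median of all genes they ranged over the settings from -0.94 to -0.62 for S100a10, from -0.63 to -0.14 for S100a11 and from -0.64 to -0.20 for S100a6.

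The annexins and other intracellular partners lay within 2-fold between tumour and blood and were mostly lower on MCC. Of 9 partner genes detected on PCC and CCC, 0 reached 2-fold, beside 8.63% of all genes, and the median log2 difference was -0.14 (0.038 without normalization). Of 8 detected on PCC and MCC, 4 were at least 2-fold lower and 0 higher on MCC (median -1.18), beside 21.1% of all genes lower and 14.2% higher. Anxa2 had deposited intensities of 24644.6, 23186.9 and 4071 on PCC, CCC and MCC and was 3.03-fold lower on MCC than on PCC, against 1.76-fold for its partner S100a10. Anxa1 was 4.97-fold lower on MCC, against 1.26-fold for S100a11. Cacybp, the calcyclin-binding protein, was detected on PCC and CCC and not on MCC, at least 2.12-fold lower there than on PCC. Anxa6 went the other way, 1.60-fold higher on MCC, with a log2 difference of -0.28 without normalization.

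The plasminogen activator system, which acts at the S100a10 and annexin A2 surface complex, was sparse. Of 5 genes with a probe, Plau (urokinase) and its receptor Plaur were detected, and Plat and Plg were not. Plau had deposited intensities of 2102, 1985 and 261 on PCC, CCC and MCC, and Plaur 632, 581 and 42.6. On MCC they were 4.72-fold and 8.71-fold lower than on PCC, while between CCC and PCC they were within 1.24-fold.

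S100a1 and S100a13, which lie head to head, were the members higher on both the blood and the lung array than on the tumour array by the widest margins. S100a1, known best as a regulator of calcium cycling in muscle, had deposited intensities of 140 on PCC, 693 on CCC and 265 on MCC. S100a13, which takes part in the export of FGF1 and interleukin-1α without a signal peptide, had 227, 537 and 322. Both were lowest on PCC. S100a1 was 3.69-fold higher on CCC and 2.64-fold higher on MCC than on PCC, and S100a13 was 1.90-fold and 2.12-fold higher.

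The pair parted in size on CCC, where S100a1 exceeded S100a13 by 0.95 in log2 difference from PCC, against 0.32 on MCC. Their order between CCC and MCC differed too: S100a1 was 1.40-fold higher on CCC than on MCC and S100a13 1.11-fold lower, the latter turning to a log2 difference of 0.71 without between-array normalization. On MCC the 2-fold size of S100a13 also rested on the setting. It was 0.98 on the log2 scale both under 75th percentile scaling and with an offset of 50, and 0.48 without normalization. Measured from the median of all genes, S100a1 on MCC lay between 1.37 and 1.66 and S100a13 between 1.10 and 1.30 over the settings.

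The export cargo of S100a13 was dim. Fgf1 was detected on MCC alone, at a deposited intensity of 43.7, at least 1.18-fold higher than on PCC. Il1a was detected on CCC alone, at 50.2. Ryr1, the muscle calcium channel that S100a1 binds, was detected on no array.

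S100a14 and S100a16, both made by epithelia, were near background on every array. S100a14 had deposited intensities of 39.3 on PCC, 47.5 on CCC and 24.1 on MCC, and missed detection on MCC at a detection p of 0.0125. It was 1.13-fold lower on CCC than on PCC, a direction that turned without normalization, to a log2 difference of 0.20. S100a16 had 47.2, 78.5 and 56.8, and was 1.16-fold higher on CCC and 1.31-fold higher on MCC than on PCC. At these levels the differences are small beside the closeness to the lowest detected levels, and their size is uncertain.

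Set directly against each other, the blood array stood above the lung array for most members. Of 9 members detected on both, CCC stood above MCC in 7 and below it in 2, and the median log2 difference was 0.96, against -0.01 over all 7313 genes. Of all these genes, 49.4% were higher on CCC. S100a8 (18.3-fold), S100a9 (17.5-fold), S100a4 (12.8-fold) and S100a10 (2.78-fold) were at least 2-fold higher and 0 members lower, beside 33.8% of all genes past 2-fold, 16.6% higher and 17.3% lower. The 4 members became 6 under 75th percentile scaling and 7 without between-array normalization, where 49.1% of all genes were past 2-fold, 88.1% of these higher on CCC. These values follow from the differences of the other pairs. S100a11 stood just short of the size, at 0.96 on the log2 scale, and S100a6 was 1.54-fold higher. S100a13 and S100a16 were lower by 1.11-fold and 1.12-fold, and both were higher on CCC without between-array normalization.

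**Figure D4:**
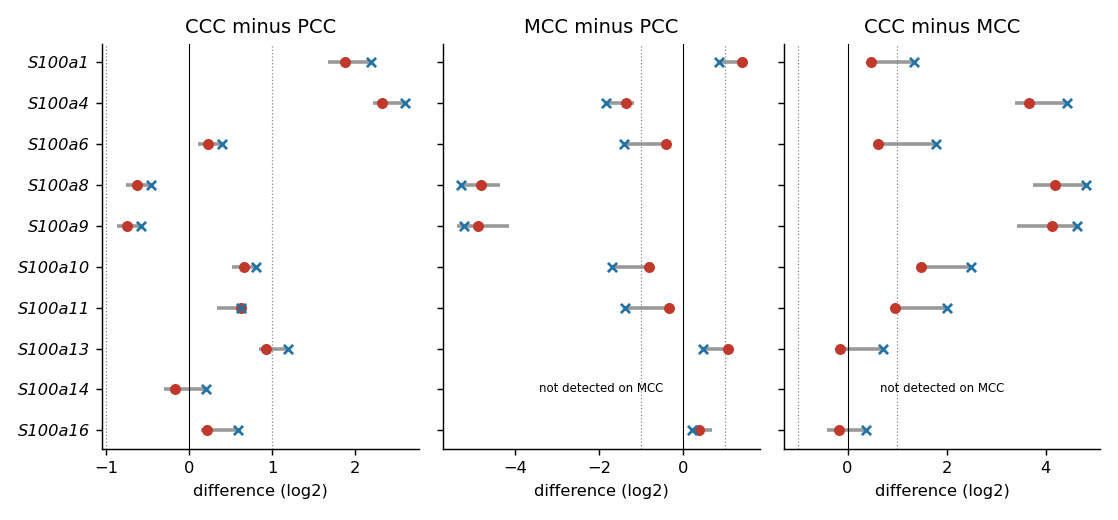
Log2 difference (horizontal axis) of each S100 gene (vertical axis) in the 3 pairs of arrays, with the reported value (red point), its range over 9 other processing settings (grey bar) and the value without between-array normalization (blue cross). Dotted lines mark 2-fold. S100a8 and S100a9 stayed at or below -4.16 on MCC against PCC, S100a4 stayed at or above 2.22 on CCC and at or below -1.16 on MCC, and the bars of S100a13, S100a14 and S100a16 cross 0 in 1 pair each.

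Of the 5 other S100 genes with a probe, 1 was detected on at least 1 array, beside 9082 of all 16593 genes. The members were chosen with values known, so nothing is read from that contrast. S100a2, S100a7l2 and S100z have no probe. The arrays hold probes for 15 S100 genes, of which 11 were detected on at least 1 array, the 10 members and S100a7a. S100a7a, a relative of human psoriasin, is the neighbour of S100a8 among the S100 genes of the cluster in RefSeq. It had deposited intensities of 56.4 (PCC), 56.4 (CCC) and 1.84 (MCC), so it was detected on PCC and CCC and not on MCC, where S100a8 and S100a9 were still detected, and was at least 1.57-fold lower there than on PCC. S100a3, S100a5, S100b and S100g were detected on no array, with detection p-values of 0.0752 to 0.900.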

How the data were processed

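The main values were the authors' deposited intensities per probe. The submitters' processing notes name GenomeStudio without a version. Background had been subtracted from them, since 24.0% to 28.3% lie below 0 on an array. Per the file headers, the deposited table also holds a detection p-value per probe and array. A second deposited table of intensities is a straight line of the first on each array (slopes 0.926, 0.865 and 1.53 for PCC, CCC and MCC, column medians 42.9, 32.0 and 35.1, largest residual 0.0131). It is linear, uncentred and runs in the same direction, its between-array method is not stated, and it served as an alternative.

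Intensities were background-corrected, given an offset of 16, quantile normalized and put on the log2 scale with neqc of limma 3.58.1 (R 4.3.3). Each gene took its brightest detected probe. Probe symbols came from the platform annotation (23978 probes with 1 symbol, and 1719 with none or more than 1 left out), and 23962 matched the mouse reference. Where only 1 array of a pair detected a gene, its fold is a lower bound ("at least"), against the higher of the other array's lowest detected level and its own value there. The summed level of a marker list adds linear normalized intensities of all its probes, detected or not. The counting was tested on simulated arrays. Counts and figures were made in Python 3.11.15 (pandas 2.3.3, numpy 2.4.6, matplotlib 3.10.9).

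The members, gene lists and marker lists were chosen with earlier results of these data known. The text names the members, other genes of those lists and, for S100a8 with S100a9 and for S100a4, the 5 genes with the smallest Euclidean distance between mean-centred profiles. No coordinates are given for probes. With 1 array a group, precision is limited by the number of arrays. Alternatives were the normalization, the offset, the background step, the second table, the detection threshold, the filter on dim probes and the probe rule.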

Additional observations from a re-analysis of the deposited data

Results flagged for a closer look

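S100a4 moved one way on the array labelled CCC and the opposite way on the array labelled MCC, each by at least 2-fold against PCC, with log2 differences of 2.33 and -1.35. There is 1 array a group, so the difference between these directions was not tested, and the gene was chosen in part for it. Its direction held under the 5 alternatives that could move it, from 2.22 to 2.60 on CCC and from -1.83 to -1.16 on MCC, and the other 4, on the detection filter and the probe rule, leave the value of a gene with 1 probe as it is. The macrophage list had median log2 differences from PCC of 2.35 on CCC and -0.35 on MCC. Its part in the S100a4 values was not tested.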

How the results depend on the processing

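Member differences and counts were recomputed under 9 alternatives, with 1 choice changed at a time. Of these, 4 (the detection threshold, both filters on dim probes and the probe rule) could not move the difference of a member, which has 1 probe. Under the other 5, 120 of 140 member differences kept their direction and their side of 2-fold, and 20 did not. No member that was 2-fold apart turned its direction. The count of members 2-fold apart between CCC and MCC was 4 and became 7 without between-array normalization. In the other pairs the counts stayed within 1.5 times of those reported, 2 to 3 members for CCC against PCC and 4 to 6 for MCC against PCC. Without normalization the median log2 difference of all genes moved from -0.10 to 0.13 (CCC minus PCC), from -0.16 to -0.75 (MCC minus PCC) and from -0.01 to 0.83 (CCC minus MCC), and S100a14 (CCC against PCC), S100a13 and S100a16 (CCC against MCC) turned direction there. Of all genes past 2-fold, 57.4% were higher on CCC than on PCC, against 82.4% without normalization. On MCC against PCC it was 40.2%, against 14.7%, and on CCC against MCC 49.0%, against 88.1%. The difference of S100a8 on MCC from PCC ranged from -5.29 to -4.36 and that of S100a9 from -5.38 to -4.16. S100a14, S100a16 and, on MCC, S100a9 lie near the lowest detected signal, which limits their folds. Chosen after seeing the data, the same alternatives were run on the gene lists: of 2403 differences of single genes, 153 lost their direction or side of 2-fold, 93 of them without between-array normalization, and of 448 list medians 50 did, 16 of them without normalization and 16 without the filter on dim probes. No gene or list median that was 2-fold apart turned its direction. The nearest genes were ranked under the reported setting only. No paired analysis was possible because each group has 1 array.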

Other observations

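Calprotectin delivers arachidonic acid to the phagocyte NADPH oxidase. Of 5 oxidase genes with a probe, Cybb was detected on no array (detection p 0.462 to 0.812), and the detected genes did not follow S100a8 and S100a9. The 3 oxidase genes detected on both PCC and MCC were at least 2-fold higher on MCC, beside 14.2% of all genes. Cyba was higher by 2.31-fold, Ncf4 by 3.16-fold and Rac2 by 17.0-fold. Without between-array normalization Cyba and Ncf4 stayed higher by less than 2-fold, at 0.25 and 0.91 on the log2 scale. The GTPase Rac2 had deposited intensities of 60.0, 435 and 827 on PCC, CCC and MCC. Ncf1 was undetected on PCC alone, and was at least 2.94-fold higher on CCC and 3.05-fold higher on MCC. Rac2 is expressed across blood cells, and against PCC the lymphocyte list had median log2 differences of 4.32 on MCC and 2.12 on CCC, over 4 genes each. The part of lymphocyte RNA in the Rac2 values was not tested.

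Of 10 other EF-hand calcium-binding genes detected on both CCC and PCC, 0 reached 2-fold, beside 8.63% of all genes, and their median log2 difference was 0.04 (-0.086 under 75th percentile scaling). On MCC against PCC 1 of 9 was 2-fold higher and 2 were lower (median -0.12), beside 14.2% and 21.1% of all genes. Calmodulin gene Calm2 was 4.15-fold lower on MCC while Calm3, which encodes the same protein, had a log2 difference of 0.33, which turned to -0.65 without normalization and to -0.15 under 75th percentile scaling. The genes Calu and Sdf4, whose proteins lie in the secretory pathway, had log2 differences of -2.32 and 1.34. The fused-type S100 genes of the epidermis with a probe, Flg2, Hrnr, Rptn and Tchhl1, were detected on no array.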
